A study of Mus musculus with 10 samples.

Results

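Cytochromes P450 are heme enzymes of the endoplasmic reticulum that insert 1 atom of oxygen into their substrates with electrons passed from NADPH. Families 1 to 4 handle drugs, dietary and bacterial compounds, steroids and fatty acids. Members of the Cyp2c and Cyp2j subfamilies epoxidise arachidonic acid, members of the Cyp4a and Cyp4f subfamilies oxidise the far end of fatty acids and leukotrienes, and the Cyp1 genes are the classical targets of the aryl hydrocarbon receptor Ahr. In the gut these enzymes are known mainly from epithelial cells, the first cells to meet ingested compounds.

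The 56 genes described here were those with a probe set annotated to 1 gene whose symbol is Cyp followed by a digit between 1 and 4 and a letter, out of 18193 genes measured. They were 3 genes of family 1, 35 of family 2, 5 of family 3 and 13 of family 4, and 2 of them, Cyp2d13 and Cyp4f41-ps, are transcribed pseudogenes in RefSeq. A further 17 measured genes belonged to other P450 families. The data came from T-cell transfer colitis, in which mice without T and B cells of their own receive T cells from another mouse. The T cells of the gut thus derive from the injected cells. RNA from the distal colon was hybridised to Affymetrix whole-genome mouse arrays, with 1 array per colon.

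All 10 mice were Rag1-/- on the C57BL/6 strain, were injected at 10 weeks of age, were sacrificed 2 to 3 months later and were 4 to 5 months old. The naïve T-injected mice had inflamed colons, labelled severe in 3 and moderate in 3, and the 4 Treg-injected mice had non-inflamed colons and served as the negative control. The labels call the colons biological replicates. Because whole tissue was measured, fewer cells of a type and less RNA per cell cannot be told apart in any value below. All 9 colon epithelium markers lay above the array median, and their mean log2 value was 12.7 to 13.2 over the inflamed colons and 13.0 to 13.2 over the control colons. The mean of 21 pan-epithelial genes was 11.6 to 11.8 in inflamed and 11.5 to 11.6 in control colons, with 7 genes higher and 2 lower. Of 21 colonocyte markers 3 rose and 10 fell, and their mean was 9.95 to 10.7 in inflamed and 11.2 to 11.4 in control colons. All 8 macrophage markers, 5 of 6 neutrophil markers and 6 of 7 T cell markers rose, whereas all 8 smooth muscle markers fell. Of 7 endothelium markers 5 fell, and of 7 fibroblast markers 3 fell and 1 rose. The part of these shifts in the P450 values was not tested.

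A gene was counted as expressed when its mean over the 10 arrays was above the mean array median of 5.38, and as dim otherwise. Of the 56 genes 21 were expressed and 35 were dim. Cyp2b10 stood just inside that line at a mean of 5.45 and Cyp2j11 just outside it at 5.09. The dim genes included all 3 Cyp1 genes, all 3 Cyp4a genes, 4 of 5 Cyp3a genes and 7 of 11 Cyp2c genes, whereas 7 of 8 Cyp2d genes were expressed.

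The upstream sequences of 6 genes on which the results turn are shown first: Cyp2c55, Cyp2c65 and Cyp2c68, which fell, their chromosome 19 neighbour Cyp2c38, which did not pass the test, and Cyp2j6 and Cyp4f18, which rose. Each is the 250 bases before the start of the gene, read 5′ to 3′ on the strand of the gene, from RefSeq on build GRCm38.p6. They lie at chr19:39006769-39007018 (plus strand) for Cyp2c55, chr19:39060756-39061005 (plus strand) for Cyp2c65, chr19:39741102-39741351 (minus strand) for Cyp2c68, chr19:39463076-39463325 (minus strand) for Cyp2c38, chr4:96553652-96553901 (minus strand) for Cyp2j6 and chr8:72009627-72009876 (minus strand) for Cyp4f18. Capitals mark matches on either strand to TATAAA (the TATA box), CAAAGTCCA (a motif bound by HNF4 receptors) or GCGTG (the core bound by Ahr with Arnt).
Cyp2c55: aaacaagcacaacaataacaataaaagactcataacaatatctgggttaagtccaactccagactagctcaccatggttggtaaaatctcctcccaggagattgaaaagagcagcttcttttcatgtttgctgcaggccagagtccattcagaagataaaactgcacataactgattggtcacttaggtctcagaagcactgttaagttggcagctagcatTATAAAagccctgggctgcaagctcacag
Cyp2c65: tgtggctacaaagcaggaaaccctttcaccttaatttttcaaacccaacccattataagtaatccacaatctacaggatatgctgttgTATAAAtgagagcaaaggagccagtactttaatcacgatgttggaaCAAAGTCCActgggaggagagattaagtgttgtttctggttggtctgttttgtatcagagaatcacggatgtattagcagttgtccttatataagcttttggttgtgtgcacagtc
Cyp2c68: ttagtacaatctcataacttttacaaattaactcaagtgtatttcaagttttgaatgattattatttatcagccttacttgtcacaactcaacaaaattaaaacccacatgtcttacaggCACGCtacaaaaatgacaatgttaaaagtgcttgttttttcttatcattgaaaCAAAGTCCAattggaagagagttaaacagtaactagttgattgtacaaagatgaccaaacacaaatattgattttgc
Cyp2c38: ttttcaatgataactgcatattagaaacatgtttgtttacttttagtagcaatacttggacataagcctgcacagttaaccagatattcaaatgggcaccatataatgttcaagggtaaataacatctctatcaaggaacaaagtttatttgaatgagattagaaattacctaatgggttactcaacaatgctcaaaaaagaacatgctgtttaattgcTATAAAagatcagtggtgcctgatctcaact
Cyp2j6: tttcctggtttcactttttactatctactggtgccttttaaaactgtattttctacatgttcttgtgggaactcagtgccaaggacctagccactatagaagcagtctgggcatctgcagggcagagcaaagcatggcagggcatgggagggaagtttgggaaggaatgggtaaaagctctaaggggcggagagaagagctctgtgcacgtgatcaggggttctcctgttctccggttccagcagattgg
Cyp4f18: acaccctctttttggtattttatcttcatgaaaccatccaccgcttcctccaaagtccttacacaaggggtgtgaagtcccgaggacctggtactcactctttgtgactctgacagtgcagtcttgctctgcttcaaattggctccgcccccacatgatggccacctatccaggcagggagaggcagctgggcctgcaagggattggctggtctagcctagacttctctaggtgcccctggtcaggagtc

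TATAAA ended 24 bases before the start in Cyp2c55 and 26 bases before it in Cyp2c38, so the fallen gene and its neighbour shared that feature. In Cyp2c65 it ended 157 bases before the start. Only these exact letters were marked, so similar ones, such as tatataa nearer the start of Cyp2c65, were not counted. CAAAGTCCA stood 116 to 108 bases before the start of Cyp2c65 and 77 to 69 bases before that of Cyp2c68, and Cyp2c68 also held GCGTG on the opposite strand. No marked motifs overlapped. None of these letters occurred in the windows of Cyp2j6 and Cyp4f18, which says nothing about the factors.

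Over the 43 of the 56 genes with a window, TATAAA occurred in 17 (39.5%, against 12.4% of 32851 windows of the same length). CAAAGTCCA occurred in 5 (11.6%, against 0.384%), namely Cyp2c65, Cyp2c68, Cyp2c70, Cyp3a11 and Cyp3a16. GCGTG occurred in 10 (23.3%, against 28.2%). TATAAA was found in 5 of 15 genes with a window that fell and in 11 of 24 that did not pass, and CAAAGTCCA in 2 and 3 of them. A match is a description of the letters and not a binding site.

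The first comparison asked which P450 genes differed between inflamed and non-inflamed colons. In inflamed colons 20 of the 56 genes were lower, 4 were higher and 32 did not pass (limma, Benjamini-Hochberg adjusted p under 0.05 over all 18193 genes). Among all genes 21.2% were lower and 18.5% were higher. Within the 21 expressed genes 15 fell, 2 rose and 4 did not pass, against 27.4% lower and 23.4% higher among the 11811 genes above the same line. That line was drawn on the mean of all colons. Of the genes that fell, Cyp4b1 lay above the array median in control colons alone. Of those that rose, Cyp4f18 lay above it in inflamed colons alone. The median log2 difference of the expressed P450 genes was -1.34, and that of all expressed genes was -0.003. The values of inflamed and control colons did not overlap for 20 of the 56 P450 genes, against 31.7% of all genes. Of the 21 expressed P450 genes 15 did not overlap, against 4900 of the 11811 expressed genes of the whole array.

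**Figure D1:**
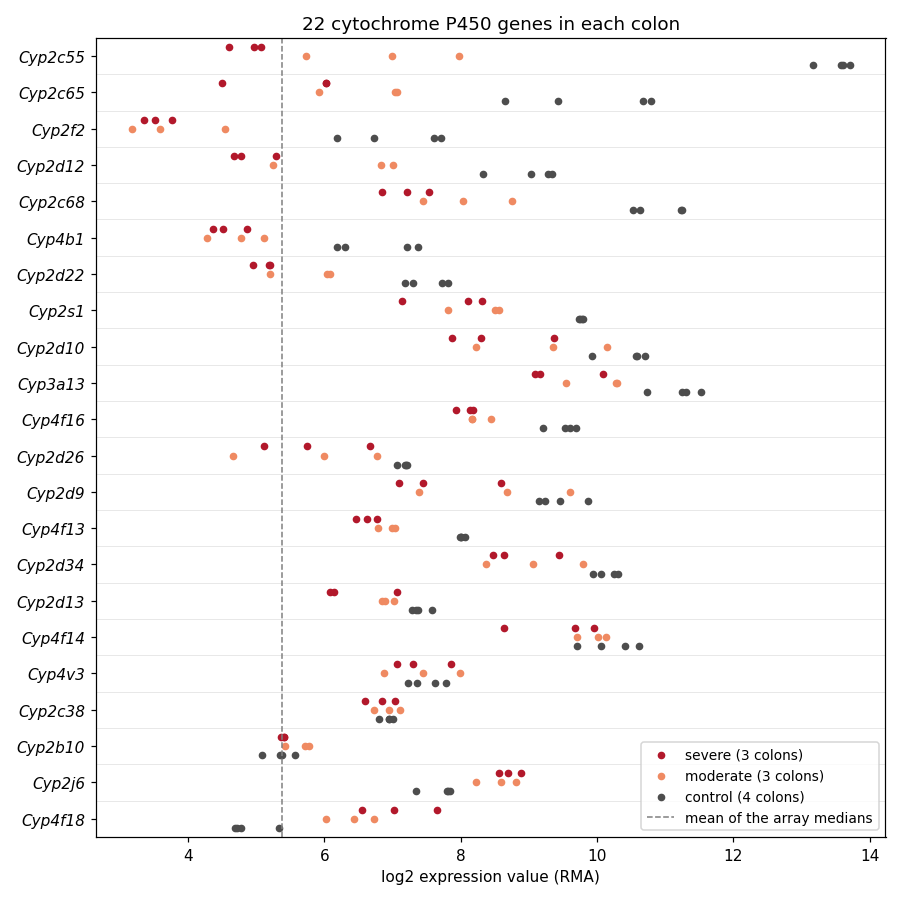
Log2 expression value (horizontal axis) of the 21 expressed P450 genes and Cyp2f2 in each colon, with 1 point per colon (3 severe, 3 moderate, 4 control) and genes ordered by the difference between inflamed and control colons. The inflamed points lie left of the control points in the upper rows, overlapping in Cyp2d10 and Cyp2d9, with Cyp2c55 at 4.60 to 7.97 in inflamed and 13.2 to 13.7 in control colons, and right of them only for Cyp2j6 and Cyp4f18.

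Cyp2c55, an arachidonic acid hydroxylase and epoxygenase known from the mouse colon, had log2 values of 4.60, 5.07 and 4.97 in severe and 5.73, 6.99 and 7.97 in moderate colons, against 13.70, 13.16, 13.61 and 13.57 in control colons. Control colons stood within 1 unit of each other, whereas moderate colons were spread over more than that and the severe colons lay below their array medians. Inflamed colons were lower by 7.62 (standard error 0.57, limma adjusted p = 4.01e-06), the largest fall of all 18193 genes and 197-fold on the linear scale, a size that is uncertain because the severe values are dim.

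Cyp2c65, its next neighbour on chromosome 19 and known from stomach and intestine, measured 4.50, 6.03 and 6.02 in severe and 5.93, 7.07 and 7.03 in moderate colons, against 10.68, 8.65, 9.43 and 10.80 in control colons. The groups did not overlap, although the control colons themselves were spread widely. The difference was -3.79 (standard error 0.53, limma adjusted p = 0.000162). Its only probe set can match transcripts of related genes, as its name suffix marks.

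Cyp2c68, of the same cluster, measured 7.54, 7.21 and 6.85 in severe and 7.45, 8.04 and 8.75 in moderate colons, against 10.63, 11.24, 11.23 and 10.53 in control colons. Every inflamed value was lower than every control value while remaining above the array median. It fell by 3.27 (standard error 0.32, limma adjusted p = 1.57e-05).

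Between these genes on the chromosome, Cyp2c38 measured 6.85, 7.04 and 6.60 in severe and 6.95, 7.11 and 6.72 in moderate colons, against 6.96, 7.00, 6.80 and 6.95 in control colons. These values overlapped, with a difference of -0.05 (95% interval -0.27 to 0.17, limma adjusted p = 0.72). Its sign turned positive when the arrays were quantile normalized once more or severe replicate 3 was left out. Cyp2c29 and Cyp2c39, also between them, were dim and did not pass, and of the other dim Cyp2c genes Cyp2c23, an epoxygenase known from the mouse kidney, fell by 0.71 and Cyp2c37 was higher by 0.18. The large differences among the measured Cyp2c genes were therefore those of 3 of the 4 expressed ones. Cyp2c66, Cyp2c67, Cyp2c40 and Cyp2c69 of the same cluster were not measured. How far the probes of the measured genes detect these relatives was not tested.

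**Figure D2:**
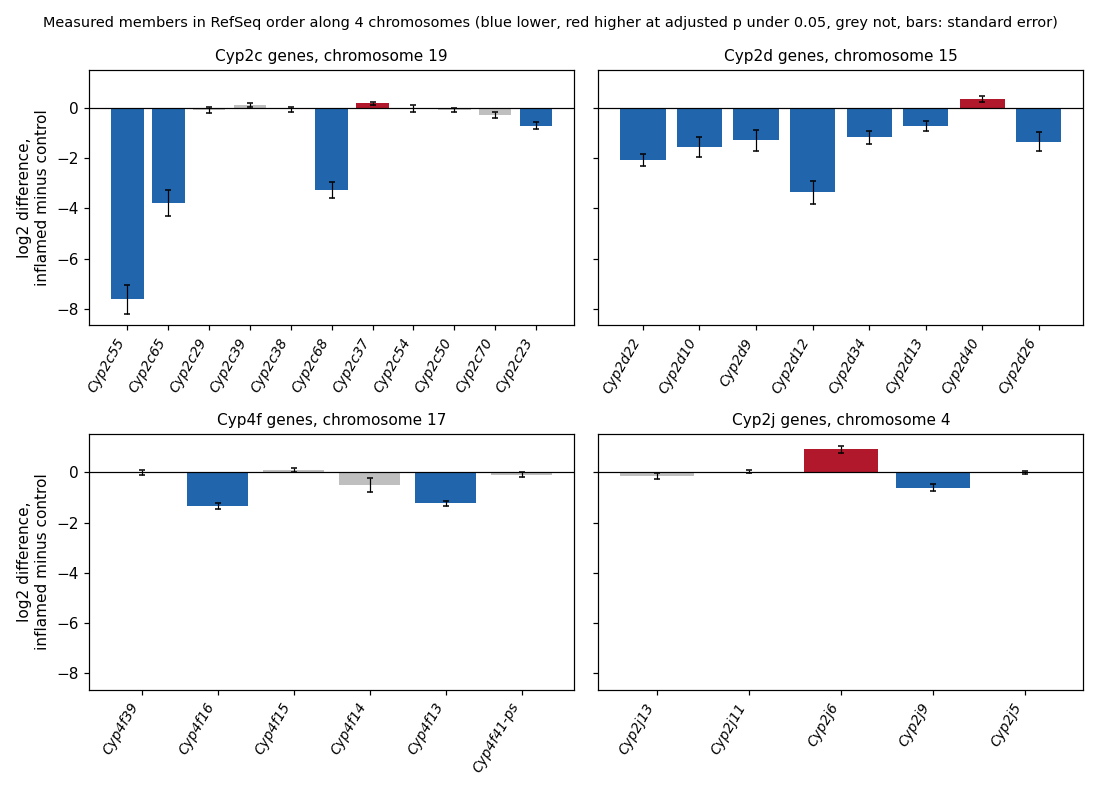
Log2 difference between inflamed and control colons (vertical axis, error bars are standard errors) of the measured genes in RefSeq order along 4 chromosomes. On chromosome 19 tall bars for Cyp2c55 (-7.62), Cyp2c65 (-3.79) and Cyp2c68 (-3.27) stand beside bars near 0, on chromosome 15 all Cyp2d bars but that of Cyp2d40 point down, and on chromosome 4 Cyp2j6 (0.93) points up next to Cyp2j9 (-0.61).

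The Cyp2d genes on chromosome 15 are the mouse counterparts of the human drug-metabolising gene CYP2D6. All 7 expressed Cyp2d genes were lower in inflamed colons, with a median difference of -1.34. The dim Cyp2d40 was higher by 0.34 (limma adjusted p = 0.0417). These genes are close paralogues, and how far their probes detect each other was not tested.

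Cyp2d12 had the largest fall of the cluster, with 4.67, 5.29 and 4.78 in severe and 5.24, 7.01 and 6.83 in moderate colons, against 8.33, 9.28, 9.03 and 9.33 in control colons. All inflamed values were lower than all control values, and the severe colons lay below their array medians. It fell by 3.36 (standard error 0.46, limma adjusted p = 0.000155).

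Cyp2d22 measured 5.19, 5.20 and 4.96 in severe and 5.20, 6.04 and 6.09 in moderate colons, against 7.31, 7.73, 7.82 and 7.18 in control colons. Again the groups did not overlap. The fall of 2.06 (standard error 0.24, limma adjusted p = 4.41e-05) had its like in a second probe set of the gene, where inflamed colons were lower by 2.13.

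Cyp2d10 measured 8.30, 9.37 and 7.87 in severe and 8.23, 10.14 and 9.35 in moderate colons, against 9.93, 10.58, 10.57 and 10.70 in control colons. Severe replicate 2 and moderate replicates 2 and 3 were higher than the other inflamed colons, and moderate replicate 2 reached the control range. The same 3 colons were the higher ones for Cyp2d9, Cyp2d34 and Cyp3a13. Cyp2d10 fell by 1.57 (standard error 0.39, limma adjusted p = 0.00748).

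Cyp2d9 measured 7.45, 8.60 and 7.10 in severe and 7.39, 9.60 and 8.68 in moderate colons, against 9.15, 9.45, 9.24 and 9.87 in control colons. The groups overlapped through moderate replicate 2. Its fall of 1.29 (standard error 0.43, limma adjusted p = 0.0324) was the least secure of the cluster, since it no longer passed under 7 of the 10 single-array omissions (each of the 4 control colons, severe replicates 1 and 3, and moderate replicate 1), where the adjusted p was 0.0513 to 0.0906.

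Cyp2d34 measured 8.48, 9.44 and 8.64 in severe and 8.37, 9.79 and 9.07 in moderate colons, against 9.95, 10.31, 10.06 and 10.25 in control colons. The groups lay apart by a small margin, and the difference was -1.18 (standard error 0.25, limma adjusted p = 0.00303). Cyp2d26 measured 5.12, 5.75 and 6.67 in severe and 4.67, 6.77 and 6.00 in moderate colons, against 7.18, 7.07, 7.22 and 7.19 in control colons. Its control colons were nearly alike and its inflamed colons were not, and it fell by 1.34 (standard error 0.36, limma adjusted p = 0.0109). The pseudogene Cyp2d13 was lower by 0.72 (standard error 0.20, limma adjusted p = 0.0129), with 6.09 to 7.07 in inflamed colons against 7.28 to 7.59 in control colons, and its second probe set was lower by 1.03.

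Outside these clusters, Cyp2f2, which bioactivates naphthalene in the club cells of the mouse airway, measured 3.35, 3.52 and 3.76 in severe and 3.18, 3.59 and 4.54 in moderate colons, against 6.19, 7.60, 7.72 and 6.73 in control colons. It was dim by its mean, yet lay above the array median in all 4 control colons and in no inflamed colon. It fell by 3.40 (standard error 0.32, limma adjusted p = 1.32e-05).

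Cyp2s1, an enzyme of epithelia outside the liver that Ahr ligands induce, measured 7.13, 8.11 and 8.31 in severe and 8.56, 7.82 and 8.50 in moderate colons, against 9.80, 9.73, 9.75 and 9.77 in control colons. The control colons were within 0.1 of each other and all inflamed colons were lower. The fall was 1.69 (standard error 0.23, limma adjusted p = 0.000152). By contrast with this expressed gene, Cyp1a1 measured 3.68 to 3.90 in inflamed and 3.69 to 4.19 in control colons, below every array median, with a difference of -0.11 (95% interval -0.32 to 0.09). Neither Cyp1a2 nor Cyp1b1 passed the test. The unused probe sets of Cyp1b1 gave differences of 0.002 and -0.15, against 0.15 for the one used.

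Cyp3a13, a steroid and drug oxidase of the intestine, measured 9.09, 10.08 and 9.16 in severe and 9.54, 10.28 and 10.29 in moderate colons, against 11.52, 11.30, 10.73 and 11.24 in control colons. It was the 1 expressed Cyp3a gene of 5 and fell by 1.46 without overlap (standard error 0.26, limma adjusted p = 0.00096). Of the 4 dim Cyp3a genes Cyp3a25 passed with a difference of -0.28 (limma adjusted p = 0.0443), and Cyp3a11, a target of the pregnane X receptor in mouse liver, measured 2.90 to 3.43 in inflamed and 3.05 to 3.54 in control colons.

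The Cyp4f subfamily, whose members oxidise leukotrienes and long-chain fatty acids, held genes that fell, a gene that rose and genes that did not pass. Cyp4f13 measured 6.46, 6.78 and 6.63 in severe and 6.79, 7.03 and 7.00 in moderate colons, against 8.00, 8.00, 8.06 and 8.01 in control colons. Its groups were far apart relative to their spread, with a fall of 1.24 (standard error 0.11, limma adjusted p = 7.78e-06).

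Cyp4f16 measured 7.93, 8.14 and 8.18 in severe and 8.17, 8.44 and 8.16 in moderate colons, against 9.68, 9.53, 9.21 and 9.61 in control colons. It fell by 1.34 (standard error 0.11, limma adjusted p = 6.41e-06), and a probe set shared with Cyp4f37 was lower by 1.28, whereas a second probe set of its own was lower by only 0.26.

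Cyp4f14, next to Cyp4f13 and known for inactivating leukotriene B4, measured 8.64, 9.95 and 9.68 in severe and 9.70, 10.13 and 10.01 in moderate colons, against 10.61, 9.71, 10.06 and 10.40 in control colons. Severe replicates 1 and 3 and moderate replicate 1 lay below every control colon, the last of them by under 0.01, and the other 3 inflamed colons lay within the control range. The difference of -0.51 (95% interval -1.10 to 0.08) did not pass (limma adjusted p = 0.158), and it was -0.30 without severe replicate 1 (limma adjusted p = 0.189).

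Cyp4f18, the enzyme that metabolises leukotriene B4 in mouse neutrophils, measured 7.65, 6.56 and 7.02 in severe and 6.73, 6.44 and 6.03 in moderate colons, against 4.69, 5.34, 4.77 and 4.73 in control colons. Every inflamed colon lay above the array median and every control colon below it. It rose by 1.86 (standard error 0.26, limma adjusted p = 0.000177), and its second, dim probe set was higher by 0.18. Neutrophil markers moved in the same direction, with a list mean of 6.15 to 8.49 over 6 genes in inflamed and 4.01 to 4.98 in control colons, Mpo being the one that did not pass, and their part in the rise was not tested.

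Cyp2j6, of the epoxygenase subfamily Cyp2j, measured 8.56, 8.69 and 8.88 in severe and 8.22, 8.82 and 8.60 in moderate colons, against 7.84, 7.81, 7.35 and 7.80 in control colons. All inflamed colons were higher than all control colons. The rise was 0.93 (standard error 0.14, limma adjusted p = 0.000235), and it was 0.43 in a second probe set. Its neighbour Cyp2j9 was dim and fell by 0.61 (standard error 0.13, limma adjusted p = 0.00335), and the other 3 measured Cyp2j genes, also dim, did not pass. Of these, Cyp2j5 gave -0.01 in the probe set used and 0.07 in its other probe set.

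Cyp4b1, which hydroxylates medium-chain fatty acids and bioactivates plant toxins, measured 4.37, 4.86 and 4.52 in severe and 4.27, 4.78 and 5.11 in moderate colons, against 7.38, 6.31, 7.21 and 6.18 in control colons. It lay above the array median in control colons alone and fell by 2.12 (standard error 0.25, limma adjusted p = 5.05e-05). Cyp2r1, the vitamin D 25-hydroxylase, was dim in all colons, with 3.11 to 3.89 in inflamed and 4.26 to 4.48 in control colons, and was lower by 0.88 (standard error 0.14, limma adjusted p = 0.000383).

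The expressed genes that did not pass also included Cyp2b10, a target of the receptor CAR in mouse liver, and Cyp4v3, the counterpart of human CYP4V2, a fatty acid hydroxylase linked to retinal crystal deposits. Cyp2b10 measured 5.37 to 5.78 in inflamed and 5.08 to 5.56 in control colons, a difference of 0.17 (95% interval -0.07 to 0.42). Its unused probe sets were dim, with means of 2.57 and 2.84 in inflamed and 2.555 and 2.76 in control colons. Cyp4v3 measured 6.88 to 7.98 in inflamed and 7.22 to 7.78 in control colons, a difference of -0.07 (95% interval -0.53 to 0.38). That probe set can match several transcripts, and the other probe set of the gene gave -0.37 (limma adjusted p = 0.344). The sign of the first turned without control replicate 2 or without moderate replicate 2. Among the dim genes Cyp2e1, the ethanol-oxidising enzyme, measured 3.69 to 4.85 in inflamed colons, against 3.96, 5.08, 6.85 and 4.12 in control colons. Control replicate 3 stood high, and Adipoq, the adipocyte hormone adiponectin, was likewise 5.84 there and 4.59 in control replicate 2, against 3.05 and 3.34 in the other control colons and 3.22 to 3.84 in inflamed colons. The adipocyte marker Cidec was 4.94 in control replicate 3 and 4.52 in control replicate 2, against 4.88 and 5.05 in the other control colons. Lep was 3.43 in control replicate 3 and 3.08 in control replicate 2, against 3.21 and 3.13. None of the 3 measured adipocyte markers passed, and the part of fat tissue in the Cyp2e1 values was not tested. The difference of Cyp2e1 was -0.93 (standard error 0.48, limma adjusted p = 0.146).

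Since many P450 genes are best known from liver, hepatocyte markers were set beside them. Of 8 measured, Alb, Ttr and Apob fell and 5 did not pass, with a list mean of 5.96 to 6.30 in inflamed and 6.40 to 6.60 in control colons. Alb, the albumin gene, stood at 4.38 to 4.85 in inflamed and 4.96 to 5.66 in control colons, near the array median. Ttr and Apob stood far above it, at 9.98 to 11.3 and 10.6 to 10.7 in control colons. In inflamed colons they were 8.23 to 8.95 and 8.41 to 10.3. Tat was 8.85 to 9.15 in severe, 7.00 to 8.84 in moderate and 7.48 to 8.34 in control colons. Against control colons, 2 of the 8 markers were higher in severe colons and 3 were lower. The part of these genes in the P450 values was not tested.

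The next comparisons set each grade of colitis against the same 4 control colons, which they share. In severe colons 20 P450 genes were lower and 3 higher, against 18.9% and 16.1% of all genes. In moderate colons 17 were lower and 2 higher, against 16.7% and 13.2% of all genes. Cyp2d9, Cyp2d10 and Cyp2d13 passed in severe colons, with differences of -1.71, -1.93 and -0.96, and did not pass in moderate colons, with -0.87, -1.20 and -0.48 (limma adjusted p = 0.2, 0.0607 and 0.103). Cyp2c70, which makes muricholic acids in mouse liver, was dim and lower by 0.46 in severe colons (limma adjusted p = 0.0041) and by 0.11 in moderate colons (limma adjusted p = 0.44). Cyp3a25 was lower by 0.18 in severe and by 0.39 in moderate colons and passed in the moderate colons.

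**Figure D3:**
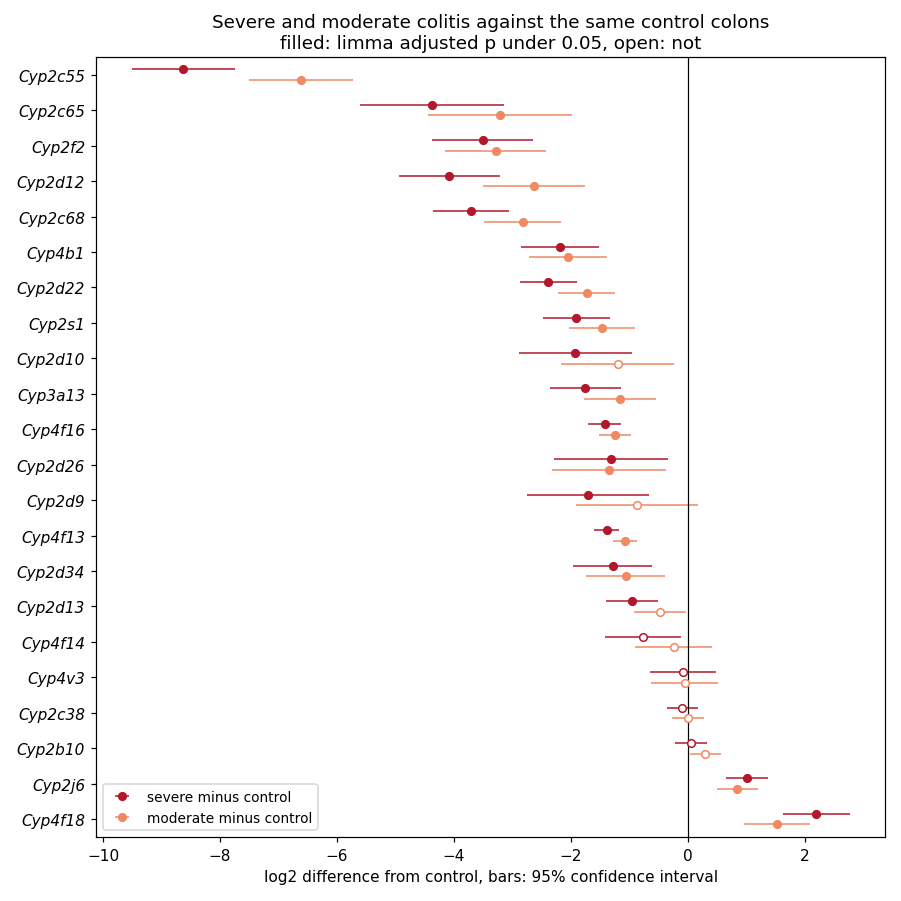
Log2 difference from the 4 control colons (horizontal axis) of the 21 expressed P450 genes and Cyp2f2 in severe (upper point of each row) and moderate colons (lower point), with 95% confidence intervals from limma and filled points where the adjusted p was under 0.05. The severe points lie farther left for most fallen genes, as for Cyp2c55 (-8.63 and -6.62) and Cyp2d12 (-4.08 and -2.63), and all intervals of Cyp4f18 and Cyp2j6 lie right of 0.

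Severe and moderate colons were also compared directly. No P450 gene passed, and 0% of all genes passed in either direction (limma, 0 of 18193 after adjustment, 922 at an unadjusted p under 0.05). The 922 genes are about as many as an unadjusted threshold of 0.05 marks where nothing differs. At that unadjusted level 9 P450 genes were marked, and none of them was a call. Cyp2c55 was lower in severe colons by 2.01 (95% interval -2.96 to -1.07, limma adjusted p = 0.55), and it passed when moderate replicate 1 was left out (a difference of -2.60, limma adjusted p = 0.0483). Cyp2d12 was lower by 1.45, Cyp2c68 by 0.88, Cyp2d22 by 0.66, Cyp2d13 by 0.48, the dim Cyp2c70 by 0.35 and Cyp4f13 by 0.32. By contrast, Cyp4f18 was higher by 0.68 and the dim Cyp3a16 by 0.23. Values of severe and moderate colons did not overlap for 8 of the 56 P450 genes, against 8.00% of all genes. Among the expressed genes these were Cyp2c55, Cyp2d22, Cyp4f13 and Cyp2b10, all lower in severe colons.

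Of the 20 P450 genes that fell in inflamed colons 18 had a severe mean below the moderate mean, or 90%, against 72% of the 3850 genes of the whole array that fell. The exceptions were Cyp2d26 and Cyp3a25. The median difference between severe and moderate colons was -0.38 over these 20 genes and -0.08 over the 3850 genes. Both sets were picked on these same arrays. The 20 genes include paralogues, and Cyp2d9, Cyp2d10 and Cyp2d34 were higher in the same inflamed colons. They were therefore not 20 separate observations, and the percentages were not compared by a test.

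The enzymes need heme and electron carriers, and 16 of 18 such genes listed were measured. Por, the reductase that passes electrons from NADPH to P450 enzymes, was not among them. Of the 16 measured genes 3 rose and 6 fell in inflamed colons. Alas1, the rate-limiting enzyme of heme synthesis, was 10.8 to 11.5 in inflamed and 9.52 to 10.1 in control colons and rose by 1.40 (standard error 0.15, limma adjusted p = 2.65e-05). Hmox1, the inducible heme oxygenase, rose by 0.95. On the falling side were Urod, a later enzyme of heme synthesis (-0.77), and Pgrmc1, a heme-binding partner of P450 enzymes (-0.72), while the cytochrome b5 gene Cyb5a was lower by 0.30. The heme genes thus moved in both directions.

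Of 37 measured regulators known to act on P450 transcription 6 rose and 15 fell. Ppara, which drives Cyp4a genes in mouse liver, was 5.04 to 5.57 in inflamed and 6.68 to 6.99 in control colons and fell by 1.48 (standard error 0.11, limma adjusted p = 3.64e-06), while its 3 measured Cyp4a targets were dim with differences of 0.06 to 0.10. Ahr fell by 0.36 (standard error 0.10, limma adjusted p = 0.0112), a call lost when the mean over its probe sets was used. The Ahr repressor Ahrr was dim and rose by 0.76, with 4.56 to 5.71 in inflamed and 4.09 to 4.41 in control colons. In moderate colons alone Ahrr did not pass (limma adjusted p = 0.0736). Nr1i3, which encodes CAR, was dim and fell by 0.41 (limma adjusted p = 0.00502). Nr1i2, which encodes the pregnane X receptor, gave -0.26 (limma adjusted p = 0.15) and Hnf4a, a nuclear receptor of liver and gut epithelium, -0.15 (limma adjusted p = 0.233). Both passed, as did Cyp4f14, when each array was scaled on its pan-epithelial genes. The mean of those genes was itself higher in inflamed colons, so the scaling lowered every gene there relative to control colons. Under it 6087 of all genes were lower and 1690 higher.

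Dbp fell by 2.35 (standard error 0.36, limma adjusted p = 0.000313) and Ppargc1a, a coactivator of nuclear receptors, by 1.99, and Cebpb, a factor of the acute-phase response, rose by 1.68. Dbp belongs with Hlf and Tef to the clock-controlled factors known in mouse liver to act on P450 genes, and Hlf and Tef fell by 1.12 and 0.74.

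**Figure D4:**
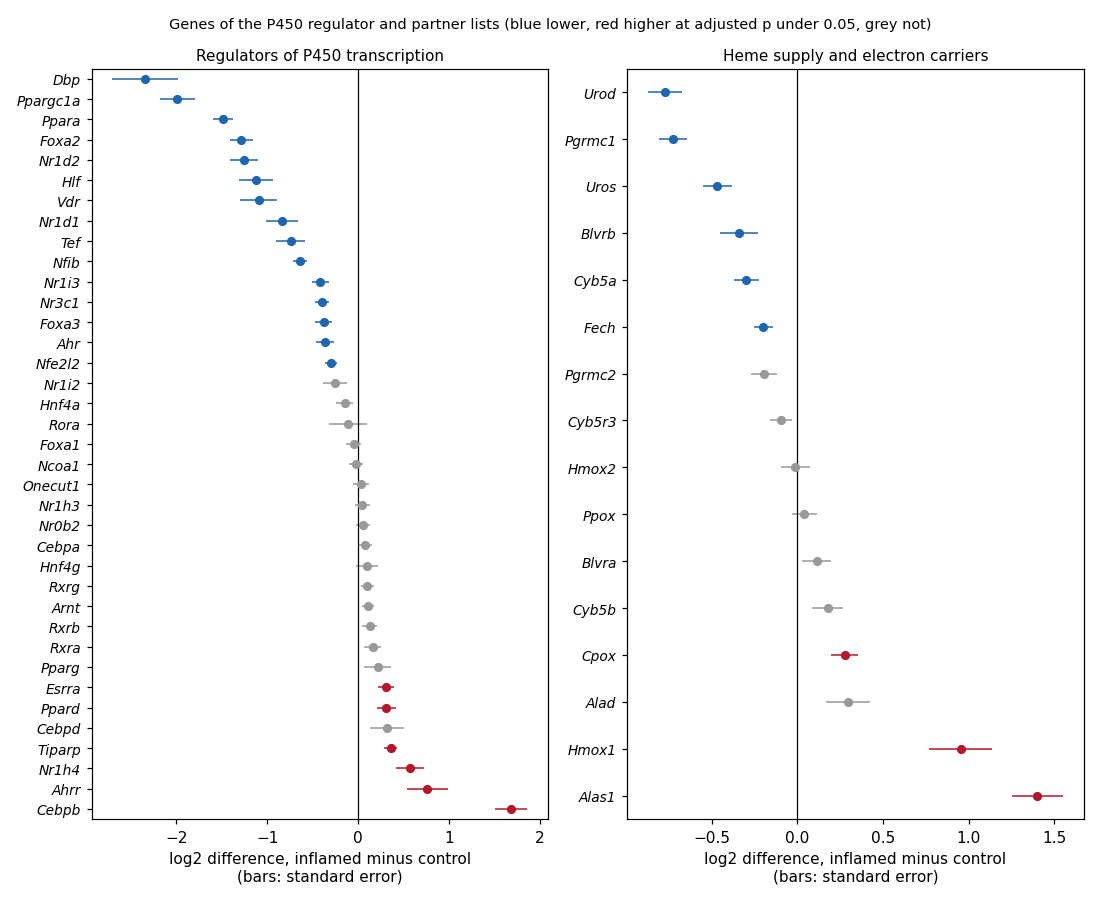
Log2 difference between inflamed and control colons (horizontal axis, error bars are standard errors) of 37 regulators of P450 transcription on the left and 16 genes of heme supply and electron transfer on the right. Blue points fell, red points rose and grey points did not pass at an adjusted p of 0.05, with Dbp (-2.35) and Cebpb (1.68) at the ends on the left and Urod (-0.77) and Alas1 (1.40) at the ends on the right.

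Among 7 genes of enzyme families that release arachidonic acid or hydrolyse epoxides, the epoxide hydrolases Ephx1, Ephx4 and Ephx2 fell by 1.38, 1.36 and 1.08. The phospholipase gene Pla2g10 fell by 0.38 (limma adjusted p = 0.015), whereas Pla2g2a, the gene of a secreted phospholipase, rose by 2.74. Pla2g4a and Ephx3 did not pass. These are RNA values, and the release of arachidonic acid was not measured. Of the 17 genes of other P450 families, Cyp27a1, the sterol 27-hydroxylase, fell by 1.05, Cyp39a1, an oxysterol hydroxylase, fell by 0.76 and Cyp7b1, the oxysterol 7-alpha-hydroxylase, rose by 1.10. The other 14 did not pass, and the median difference of the 17 genes was 0.04.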

How the data were processed

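Distal colon RNA of 10 Rag1-/- mice was measured on 10 arrays. The deposited log2 values were made by the authors with Affymetrix Expression Console and RMA, which corrects background and quantile normalizes all arrays together and so compresses differences between dim probe sets (versions are not given in the sources used here). The labels name Trizol for RNA extraction, whereas the methods of the study name a Qiagen kit. Of 45101 probe sets 34945 are annotated to 1 gene, and the probe set of highest mean stood for each of 18193 genes. All 56 P450 genes were found in RefSeq by gene identifier, 11 had more than 1 probe set, and 4 probe sets shared by several genes were left out. Of the probe sets used 3 have the suffix _s_at, which marks probes that can match several transcripts. A few listed genes were not analysed here. Precision is limited by the number of arrays.

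Differences were fitted on the log2 values by lmFit and tested by eBayes (limma version 3.58.1, R version 4.3.3) in a model of 6 inflamed and 4 control arrays, and in a model of 3 severe, 3 moderate and 4 control arrays, with Benjamini-Hochberg adjustment over all genes at 0.05. Intervals are 95% confidence intervals and errors are standard errors. The test was checked on simulated data. The genes, the 14 gene lists and the motifs were chosen with earlier results of these data known. Named with values were all P450 genes above the array median, dim ones that passed with a difference of at least 1 or lay above the median in all arrays of a group, those whose probe sets differed in sign, and the leading genes of the lists; other genes were chosen after their values were seen. Alternatives were other probe set rules, filters, scalings, variance models, the methods' t-test, a replicate block and the omission of each array. Deviations from the group means were correlated between colons of equal replicate number.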

Additional observations from a re-analysis of the deposited data

Results flagged for a closer look

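In 112 sets of values (56 genes, in the 6 inflamed and in the 4 control colons) 1 colon stood apart from the others 12 times by Dixon's criterion, which by chance marks about 1 in 20 such sets. Among expressed genes, Cyp4f14 was 8.64 in severe replicate 1, with the next inflamed colon at 9.68. Cyp2d10 was 9.93 in control replicate 1, with the next control colon at 10.57. Cyp2j6 was 7.35 in control replicate 3, with the next at 7.80, and Cyp4f18 was 5.34 in control replicate 2, with the next at 4.77. Cyp4f13 was 8.06 in control replicate 3, where the 4 control colons were almost alike.

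The dim genes gave 7 such values. Cyp1b1 was 5.29 in severe replicate 1, with the next inflamed colon at 4.37. Cyp2c29 was 4.62 in moderate replicate 2, Cyp2c50 was 4.17 in severe replicate 3 and Cyp2c54 was 3.88 in severe replicate 2. Cyp3a16 was 2.38 in control replicate 3. Cyp4a14 was 3.06 in severe replicate 2 and 3.14 in control replicate 1, lower than the rest of each group. The cause was not tested for any of these values.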

How the results depend on the processing

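Over 21 alternatives, including the omission of each array, 20 to 27 P450 genes passed between inflamed and control colons, against 24 in the report. The 20 lower calls became 18 to 21 when 1 array was left out, and the expressed ones 14 to 15. The 4 higher calls became 2 when quantile normalization was repeated, 2 under pan-epithelial scaling, and 2 to 4 when 1 array was left out, Cyp2c37 and Cyp2d40 being the ones lost (both on omission of replicate 2 or 3 of the control or of the severe colons; Cyp2b9 was gained without severe replicate 3). Pan-epithelial scaling moved the median difference of all genes to -0.14, with 6087 genes lower and 1690 higher (21.7% of the calls, against 46.7% in the report); under it 4 genes of other P450 families were lower, 2 regulators were higher in place of 6, and Cyp4f14 (-0.68), Nr1i2 (-0.43) and Hnf4a (-0.32) passed. Nr1i2 also passed without control replicate 1 (-0.38). The sign of Cyp2c38 turned when quantile normalization was repeated (0.0035) and without severe replicate 3 (0.0046, in a range of -0.097 to 0.0046), and that of Cyp4v3 turned without control replicate 2 (0.024) or moderate replicate 2 (0.036), its range over single omissions being -0.18 to 0.036. Cyp2d9 missed the threshold with a trended, robust variance (adjusted p = 0.0543) and under the methods' t-test (adjusted p = 0.0835). Ahr missed it as a mean over probe sets (-0.10, adjusted p = 0.309). The higher calls in other P450 families numbered 1 to 2 when 1 array was left out. Between severe and moderate colons 0 to 1 P450 genes were lower when 1 array was left out, the 1 being Cyp2c55 without moderate replicate 1. Cyp2c65 and Cyp2c23 had no value without _s_at probe sets. The cause of these changes was not tested beyond the arrays, probe sets or scaling named.

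The correlation of deviations between colons with the same replicate number was -0.08 to 0.29. The highest values were those of severe with moderate colons, 0.29 for replicate 1 and 0.25 for replicate 2. Colons of different replicate numbers were not correlated, so whether the numbers pair the colons was not settled. With the replicate number as a replicate block, in which control replicate 4 stands alone, 23 P450 genes passed, Cyp2c37 was lost, and 2 genes of other P450 families were higher. Differences between dim values are limited by background signal.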
